A study of Homo sapiens with 9 samples.

Results

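Borders between contact domains that were present in growing fibroblasts and no longer called after RAS-induced senescence (RIS) are described here. The genome was read in bins of 40 kb. At each position between neighbouring bins, insulation was the log2 mean balanced contact between the 13 bins before and the 13 bins after it, minus the chromosome median, so that a low value marks few contacts across. A border was a local minimum of insulation with a prominence of at least 0.1, where prominence is the height from the minimum to the lower of the rims on its sides. A border counted as reproducible when at least 2 of 3 growing libraries called it within 1 bin. It counted as lost when neither RIS library had a border within 2 bins, or, because this gave fewer than 200, when the mean RIS matrix had none. On chromosomes 1 to 22 there were 5002 reproducible growing borders with a value in every library, and 256 of them (5.12%) were lost. Of the 256, 152 were absent from both RIS libraries and 104 were absent from the mean RIS matrix only. Another 4605 were kept in both RIS libraries and 141 were intermediate. A further 4 borders met the rule but had no value in some library and were left out.

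The cells were IMR90, a line of human diploid lung fibroblasts, at passage 20-25. All carried ER:HRAS(G12V), an oncogenic HRAS fused to the oestrogen receptor and delivered by a stably infected construct, so that 4-hydroxytamoxifen (4OHT) switches RAS on. The 3 growing Hi-C libraries received no 4OHT, and growing replicate 3 carried an MSCV Vector as well. The 2 RIS Hi-C libraries came from cells given 100 nM 4OHT for 6 days. The control cells thus held the construct too, and no group here separates 4OHT itself from RAS. Capture Hi-C, which enriches ligation products of chosen regions, had 2 growing and 2 RIS libraries treated in the same ways, and the border rule did not use them. The study calls them matching, and whether they were made from the same Hi-C material is not given in the sources used here. Contacts recovered from the balanced values, each pair of bins counted once, numbered 154318992 to 180775315 in growing libraries, and 109967509 and 150689993 in RIS. Values of single libraries are given in the order of the replicates, 3 for growing cells and 2 for RIS. The study calls its replicates biological, and the labels do not say how the cultures were kept apart, so p-values measure the spread between these libraries.

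Chromatin folds into domains whose loci contact each other more than they contact loci beyond the domain. Cohesin is thought to extrude loops of DNA until it meets CTCF bound in the facing orientation, and many domain borders carry such sites. Other borders lie where active (A) and inactive (B) chromatin meet, and RAS-induced senescence in fibroblasts is known for large rearrangements of heterochromatin.

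To show what the sequence at these borders can hold, CTCF core matches were read from GRCh37, whose lengths of chromosomes 1 to 22 equal those in the files. The CTCF core consensus of 12 letters was searched on both strands. Each line below gives 30 bases, 5′ to 3′ on the stated strand, for 1 of the 12 lost borders with the highest growing prominence, and capitals mark the core. The lines are those matches nearest to their border at the 6 of these 12 borders that held any.
chr6:1595511-1595540, minus strand: ttgtggttcCCACGAGGGGGCatgatgggt
chr16:81038411-81038440, plus strand: agatttcaaCCACCAGGTGGCacaatttta
chr15:70850028-70850057, plus strand: gcagcagtgCCAGTAGGCGGCatccaggac
chr7:1596077-1596106, minus strand: cacgtgtccCCACCAGGTGGCagctgcctg
chr21:34817743-34817772, minus strand: agctttttgCCACAAGGTGGCatgccatgc
chr2:8980296-8980325, minus strand: gaaatatttCCAGGAGGGGGCcgggcgcgg
The match on chromosome 16 lay 1.57 kb from its border and that on chromosome 7 lay 3.91 kb from it, while the farthest, on chromosome 6, lay 35.5 kb away. These distances are to the edge between 2 bins of 40 kb, so they do not place a border more finely than the bins. Over all lost borders, 102 of 256 (39.8%) held a core match in the 2 bins that meet at the border. The share was 57.9% at kept borders and 43.5% over all 65913 positions, each also of 2 bins. A match is a description of the letters and does not show that CTCF was bound, which was not measured here.

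The lost borders were mostly shallow in growing cells. Their median growing prominence was 0.15, and 160 of the 256 had a mean of 0.2 or less, against a median of 0.59 at kept borders. Among reproducible borders with a growing prominence up to 0.2, 15.6% were lost, among those of 0.2 to 0.4, 4.60%, and among those over 0.4, 1.64% (48 of 2935). Median prominence by library was 0.14, 0.15 and 0.15 in growing cells, and 0.05 and 0.08 in RIS. Here and below, prominence at a border is the highest within 1 bin in a growing library, but within 2 bins in a RIS library. The borders were chosen by these prominences and by the positions of the minima, so the values carry no test. All 3 growing libraries called 132 of the lost borders (51.6%), whereas they called 91.2% of the kept ones. In RIS, 12 of the lost borders had no minimum of any depth within 2 bins in either RIS library. How often other positions have such a minimum was not counted, so this does not show that the same minima remained. The 104 borders absent from the mean RIS matrix only each had a border within 2 bins in at least 1 RIS library. Of the 152 borders absent from both RIS libraries, 52 had a RIS prominence between 0.08 and the threshold of 0.1 in at least 1 library.

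**Figure D1:**
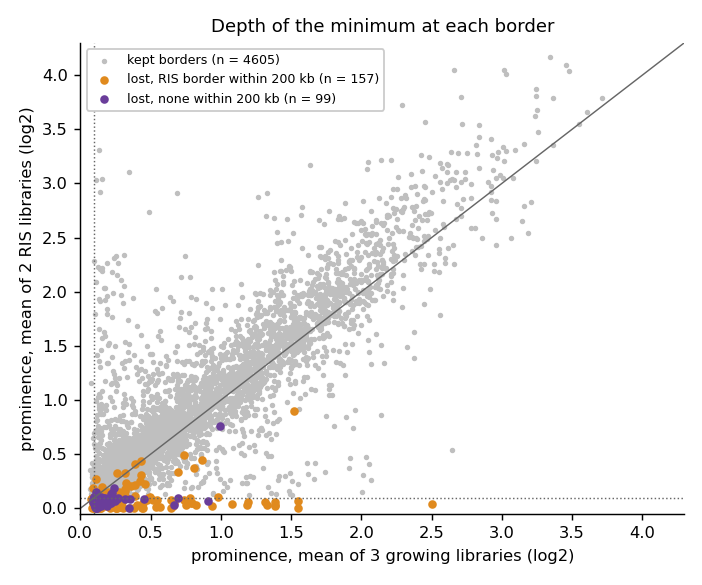
Prominence at each reproducible border as the mean of 3 growing libraries (x axis) and of 2 RIS libraries (y axis), both on a log2 scale, with the diagonal as a solid line and the threshold of 0.1 dotted. Most of the 256 lost borders (coloured) sit at low growing prominence, and a smaller number lie far to the right with almost no prominence left in RIS. Prominence is the highest within 1 bin in growing libraries and within 2 bins in RIS libraries.

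Insulation at the lost borders rose by a median of 0.08 from growing to RIS and was higher in RIS at 171 of them. Median insulation was -0.18 in each growing library, and -0.13 and -0.15 in RIS, so the medians are close together. Both RIS libraries lay above all 3 growing libraries at 139 lost borders (54.3%), and both lay below at 63. Over all 65258 positions with a value the same held for 42% above and 30.1% below. The rule used this contrast, so nothing is read from these counts. The median number of recovered contacts across a lost border was 2546.5 in RIS replicate 1 and 3365 in RIS replicate 2, against 3807.5 to 4351 in growing libraries. Counting error alone on such numbers is between 0.02 and 0.03 on the log2 scale, for reads that need not all be independent molecules.

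How far the next RIS border lay divided the lost borders. For 157 of them the nearest border of the mean RIS matrix was within 200 kb, and these are called neighboured. The other 99 had none within 200 kb and are called isolated. The names give this distance only, not where a border came from. How often other positions without a RIS border within 2 bins have one within 200 kb was not counted. The number of 157 is therefore not read as a trait of lost borders. This division at 5 bins was chosen after the values were seen. Of the neighboured borders, 88 had the RIS border exactly 3 bins away, which is just inside the rule, and the median distance over all 256 was 160 kb. The 88 had a median prominence of 0.27 in growing cells and 0.07 in RIS. Just outside the rule, 156 reproducible borders had the RIS border exactly 2 bins away, with medians of 0.30 in growing cells and 0.56 in RIS. The word lost is a label of the rule and not a measure of contacts across the border.

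The average profiles of both classes are given next. At neighboured borders insulation stayed low in RIS. Mean insulation at the border was -0.30, -0.29 and -0.31 in growing cells, and -0.24 and -0.26 in RIS. Relative to the mean 320 kb away, the dip was between -0.39 and -0.40 in growing libraries, and -0.35 and -0.36 in RIS libraries. A broad valley was thus present in every library. At isolated borders the average showed no such valley in any library. Their mean insulation was -0.08, -0.07 and -0.07 in growing cells, and -0.03 in both RIS libraries. Against the mean 120 kb away the notch was -0.15, -0.15 and -0.16 in growing cells, and -0.14 and -0.13 in RIS. At neighboured borders the same measure was -0.14, -0.14 and -0.15 in growing cells, and -0.09 and -0.10 in RIS. Relative to the mean 320 kb away, kept borders dipped by -0.61 in each growing library, and by -0.67 and -0.69 in RIS. Against the mean 120 kb away their notch was -0.46 in each growing library, and -0.51 and -0.54 in RIS.

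**Figure D2:**
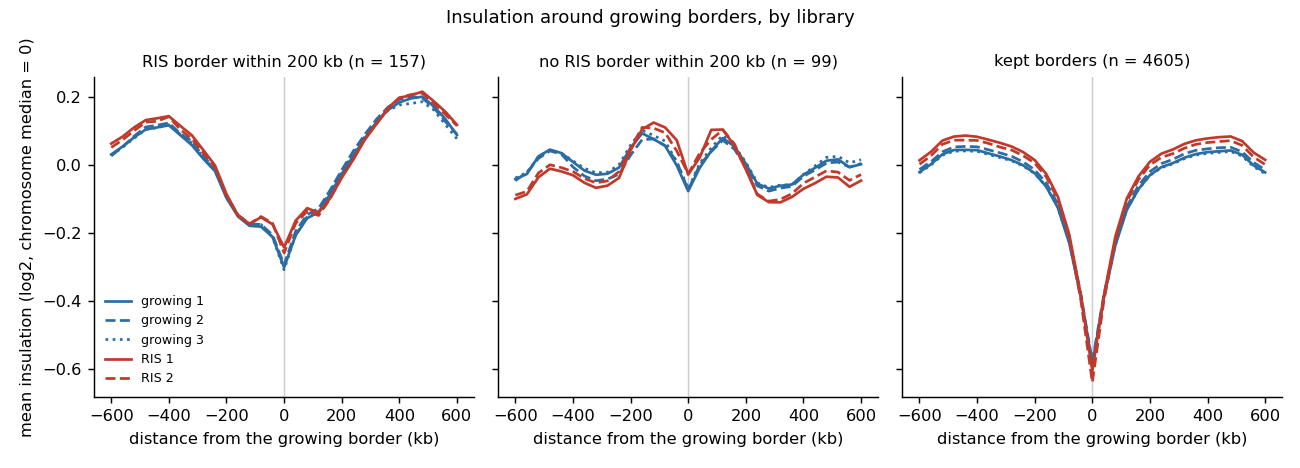
Mean insulation (log2, chromosome median set to 0) against distance from the growing border in kb, for 157 neighboured borders, 99 isolated borders and 4605 kept borders, with 1 line per Hi-C library. The neighboured borders lie in a wide valley that all 5 libraries share, the isolated borders are a narrow notch of similar depth in all 5 libraries that lies slightly higher in RIS, and the kept borders are deep in every library.

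Nearly all of the strongest lost borders were neighboured. Of the 48 with a growing prominence over 0.4, 43 were neighboured and 5 isolated, while the 160 with a prominence up to 0.2 divided into 81 and 79. All 12 lost borders with the highest growing prominence were neighboured, 10 of them with the RIS border 120 kb away and 2 with it 160 kb away. In each of these 12, which the ranking by growing prominence favours, insulation in growing cells was lower at the growing border than at the RIS border, by 0.02 to 0.18, and in RIS it was higher there, by 0.01 to 0.21. Over all 156 borders with a RIS border 3 to 5 bins away, the median difference between both positions was -0.02 in growing cells and 0.13 in RIS. The RIS border is a minimum of the mean RIS matrix. Its lower value in RIS, at 154 of the 156, thus came with the choice of positions, also at the 12, and nothing is read from it. In growing cells the growing border was the lower of both positions at 101 of the 156, and at the other 55 the position of the RIS border was already the lower one, by up to 2.07. The growing border was chosen as a minimum in growing libraries, which favours the 101, so nothing is read from that count either. The RIS border lay towards higher coordinates in 78 of the 156. Prominence takes the depth of the whole valley for the lowest point only, so a small difference between neighbouring positions moves it from one to the other.

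The strongest, in the bins chr6:1520001-1600000, had no protein-coding gene at the border. Its prominence was 2.44, 2.50 and 2.57 in growing cells, and 0.01 and 0.07 in RIS. Its insulation was -1.55, -1.62 and -1.76 in growing cells, and -1.49 and -1.57 in RIS. The prominences of the groups lay far apart, while the insulation values overlapped.

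At chr16:81000001-81080000 the edge between the 2 bins lay 0.157 kb from the start of CENPN, a centromere protein. With bins of 40 kb this does not place the border at that start. The starts of CMC2, a mitochondrial assembly factor, and of ATMIN, a partner of the ATM kinase, were also within 1 bin, as was that of a gene model known only as ENSG00000286221. Prominence was 1.71, 1.62 and 1.31 in growing cells, and 0 in both RIS libraries. Insulation was -1.11, -1.07 and -0.83 in growing cells and -1.07 in both RIS libraries, within the growing range. The RIS border lay 120 kb away towards lower coordinates, where insulation was -0.93 in growing cells and -1.22 in RIS.

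At chr2:227840001-227920000, inside COL4A4, a basement membrane collagen chain, insulation at the growing border was higher in RIS. It was -1.02, -1.08 and -1.05 in growing cells, and -0.83 and -0.86 in RIS, with no overlap. Prominence fell from between 1.51 and 1.57 to 0.05 and 0.09. The same pattern of higher insulation in both RIS libraries was seen at chr21:34800001-34880000, with starts of TMEM50B and of DNAJC28 within 1 bin. There it was -0.59, -0.67 and -0.69 in growing cells, and -0.35 and -0.39 in RIS. At chr2:8920001-9000000, beside the start of KIDINS220, a scaffold of neurotrophin receptor signalling, it was -0.94, -0.90 and -0.89, and -0.68 and -0.71.

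Mean insulation at the growing border was lower in RIS at 5 of the 12. At 2 of these neither RIS library reached the lowest growing value. On chromosome 7 the gap for RIS replicate 1 was smaller than the second decimal shows. Such an order was found at 30.1% of all 65258 positions with a value. The reverse order, seen at 4 of the 12, was found at 42%. The rule used insulation, so nothing is read from either count. At chr13:91560001-91640000, with no gene, insulation was -0.85, -0.79 and -0.78 in growing cells, and -1.07 and -1.02 in RIS. At chr7:1560001-1640000 it was -0.76, -0.85 and -0.81 in growing cells, and -0.85 and -1.22 in RIS. This border lies beside the starts of MAFK, a small Maf transcription factor, of TMEM184A and of PSMG3, a proteasome assembly factor, and 1 bin from a bin without data. It had only 414, 424 and 482 recovered contacts in growing libraries, and 295 and 314 in RIS. Its counting error is therefore larger than that given above for the median lost border. The chromosome 13 border was called lost by position, and its insulation was lower in both RIS libraries than in any growing library, which is a description only.

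Growing libraries differed among themselves in the same way at 2 of the 12. The chromosome 7 border had a prominence of 1.89 and 2.01 in growing replicates 1 and 2, but 0.04 in growing replicate 3. The chromosome 2 border at KIDINS220 had 1.64 and 1.55 in growing replicates 1 and 3, but 0.04 in growing replicate 2. In RIS both were at 0.03 to 0.07. The border at chr10:45480001-45560000, beside ZNF22, a zinc finger gene, had 1.74 in RIS replicate 1 and 0.06 in RIS replicate 2, and was lost only from the mean RIS matrix.

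The remaining 5 of the 12 had a prominence of 1.12 to 1.46 in every growing library and of 0 to 0.07 in RIS. They lay at chr15:70800001-70880000 without a gene, at chr4:91040001-91120000 by the start of CCSER1, in SLC9A9 (an endosomal sodium-proton exchanger) at chr3:143440001-143520000, and in DCDC1 at chr11:31240001-31320000. The fifth is the chromosome 13 border named above. Insulation at the chromosome 11 border was -0.79, -0.83 and -0.80 in growing cells and -0.67 and -0.70 in RIS, without overlap, whereas at chromosomes 15, 4 and 3 at least 1 RIS library lay within the growing range.

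**Figure D3:**
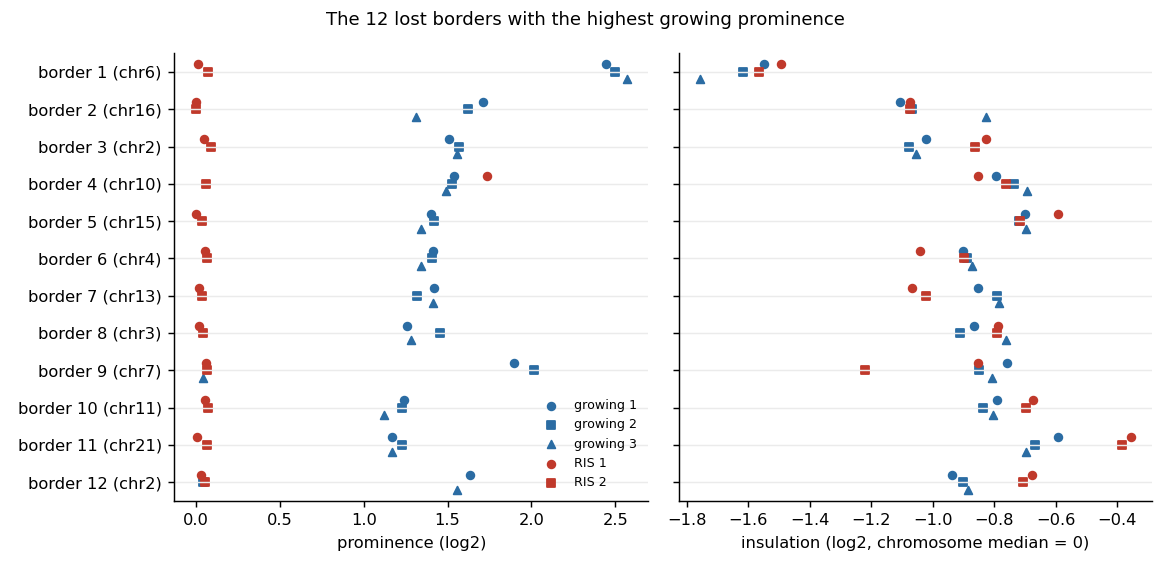
Prominence (left) and insulation (right, chromosome median set to 0), both log2, of the 12 lost borders with the highest growing prominence, numbered from the highest, with 1 point per Hi-C library. Prominence separates growing from RIS libraries at 9 of the 12, with 1 growing point below both RIS points at border 9, 1 between them at border 12, and a RIS point above the growing points at border 4, while insulation overlaps or differs in either direction.

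Of the isolated borders, 5 had a growing prominence over 0.4, and all 5 are given here, a limit set after their values were seen. Insulation was higher in both RIS libraries than in all growing libraries at 3 of them, as it was at 42% of all 65258 positions. The rule used insulation, so these values are a description only. At chr2:187280001-187360000, by the start of ZC3H15, prominence was 0.83, 0.88 and 1.01 in growing cells, and 0.06 and 0.08 in RIS. Insulation there was -0.45, -0.48 and -0.55, and -0.35 and -0.44 in RIS. At chr9:73840001-73920000, inside TRPM3, an ion channel gene, prominence was 0.66 to 0.68 in growing libraries and 0.05 and 0.02 in RIS, and insulation was -0.36, -0.38 and -0.30, and -0.19 and -0.09 in RIS. At chr8:86240001-86320000, by the starts of CA1 and CA3, genes of carbonic anhydrases, insulation was -0.27, -0.28 and -0.20, and -0.06 and -0.01 in RIS.

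Insulation was lower in both RIS libraries than in all growing libraries at the other 2, as it was at 30.1% of all positions. Both lay next to bins without data. At chr16:2000001-2080000, by the starts of 12 genes such as RPS2, a ribosomal protein, insulation was -0.57, -0.42 and -0.70 in growing cells, and -1.14 and -1.01 in RIS. Prominence there was 0.80, 0.59 and 0.69, and 0.10 in both RIS libraries. This border had 234 to 475 recovered contacts per library. At chr21:10240001-10320000, with 120 to 425 recovered contacts per library, insulation was -3.33, -3.01 and -2.83, and -3.55 and -3.57 in RIS. Its prominence was 1.34, 1.56 and 0.08 in growing cells, and 0 and 1.52 in RIS, so the libraries of a group did not agree.

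Contacts beside the borders are given next. Flank contacts are the mean of observed over expected contacts within the 13 bins before and within the 13 bins after a position, on a log2 scale centred on the chromosome median, and limma fits were made over all 65913 positions at an adjusted p below 0.05. They were lower in RIS at 104 of the 256 lost borders (40.6%) and higher at 34 (13.3%), where over all positions 52.4% were called, 30.4% down and 21.9% up. The median difference was -0.04 at lost borders, -0.01 over all positions and 0.02 at kept borders. These pairs also set insulation at the rims beside a border, and so its prominence, by which the borders and their classes were chosen. Nothing is therefore read from these counts, nor from medians of -0.08 at isolated and -0.03 at neighboured borders. Without RIS replicate 1, the shallowest library, 16 were higher and 73 lower, as were 12.6% and 23.5% of all positions.

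Contacts that span the border at longer range, between bins 1040 to 2000 kb apart, share no pair with the insulation windows of any position and were not used by the rule. They rose at 54 of 249 lost borders with a value (21.7%) and fell at 67 (26.9%), where 51.6% of all 64698 positions were called, 20.3% up and 31.3% down. These shares are near the background. The median change was -0.01 at lost borders, -0.04 over all positions and -0.07 at kept borders, of which 19.0% rose and 35.8% fell. Isolated borders rose in 21 of 94 and neighboured ones in 33 of 155. Without RIS replicate 1, 29 lost borders rose, and 13% of all positions did. These values were centred on the chromosome median too. Without centring, 68 lost borders rose (27.3%) and 55 fell (22.1%), where 23.4% of all positions rose and 27.6% fell. Which direction was the more frequent at lost borders thus depended on the centring.

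**Figure D4:**
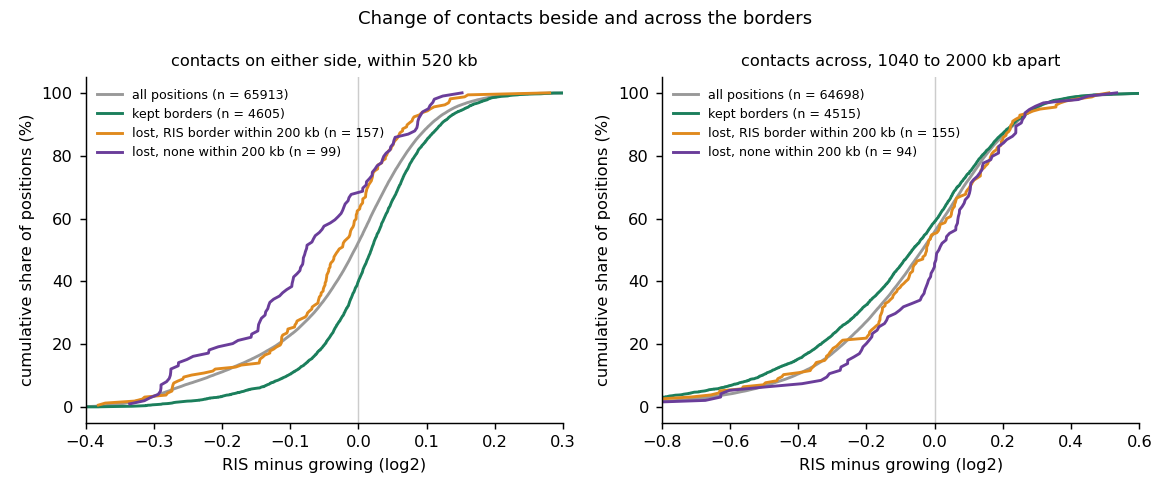
Cumulative share of positions (%) against the log2 change from growing to RIS, for flank contacts within 520 kb on either side (left) and for contacts across the position between bins 1040 to 2000 kb apart (right). On the left, where the choice of borders used the contacts, the medians of isolated, neighboured and kept borders are -0.08, -0.03 and 0.02, and on the right, where it did not, they are 0.01, -0.02 and -0.07.

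Single borders are named next, and since 51.6% of all positions passed the test, 20.3% up and 31.3% down, passing it does not set a border apart. The largest rise among the borders named so far was at TRPM3, from 0.07, 0.09 and 0.11 in growing cells to 0.52 and 0.55 in RIS, a change of 0.45 with an SE of 0.05 (limma, adjusted p = 0.000278). Of the other 4 strong isolated borders, the one at CA1 rose by 0.26 (limma, adjusted p = 0.00622) and the one at chr16:2000001-2080000 fell, with a change of -0.63 (limma, adjusted p = 0.000308). The one at ZC3H15 did not pass, with a difference of 0.14 (limma, adjusted p = 0.0729), and the one on chromosome 21 had no value. Among the 12 neighboured borders these contacts rose at KIDINS220 by 0.36 and on chromosome 15 by 0.27. They fell at 5, on chromosome 7 with -0.81, at CENPN with -0.57, at CCSER1 with -0.50, on chromosome 13 with -0.46 and in SLC9A9 with -0.36. The other 5 did not pass.

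The lost borders lay in chromatin poorer in genes than the kept ones. A protein-coding start site lay within 1 bin of 103 lost borders (40.2%), where kept borders had 59.2% and all positions 33.0%. Isolated borders had 33.3% and neighboured ones 44.6%. Median GC content of the bins at the border was 39.1% at lost borders, 42.2% at kept borders and 39.8% over all positions. Within the band of growing prominence up to 0.2, where the medians still differed (0.12 at lost and 0.15 at kept borders), the lost borders had start sites at 40.6% and the kept ones at 58.7%, and core matches at 43.1% and 55.5%.

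By the A/B score, the first component of contacts at 120 kb without near pairs, 75 lost borders lay in A (29.3%), 79 in B (30.9%) and 102 at an edge (39.8%), where the sign changes within 2 bins. Of the kept borders 45.2% lay in A, 13.1% in B and 41.6% at an edge, and of all positions 33.9%, 30.8% and 35.1%. Isolated borders lay in B at 43.4% and neighboured ones at 22.9%. The share of lost borders in each class was thus close to that of all positions. The score itself rose at 52 of 251 lost borders and fell at 64 (limma, adjusted p below 0.05), where 49.2% of all bins were called, 21.3% up and 27.8% down, so the score changed about as often as elsewhere. Without RIS replicate 1 or RIS replicate 2, 4215 and 4967 of all bins were called in place of 10856.

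Of the 102 lost borders at an A/B edge in growing cells, 36 were no longer at an edge in RIS (35.3%), 24 in A and 12 in B. Of the 1917 kept borders at an edge, 26.6% were no longer at one, 23.5% in A and 3.13% in B. Isolated borders contributed 7 of the 12 that ended in B, from 33 at an edge. The share over all edge positions was not counted, and lost borders lay in B more often than kept ones. No trait of lost borders is therefore read from these shares.

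Domains beside lost borders had a median length of 320 kb on the shorter side and 680 kb on the longer side, and those beside kept borders had 280 and 600 kb. In RIS the nearest borders on both sides of a lost border were 780 kb apart in the median, and those around a kept border 760 kb. A RIS border at the position itself was left out, so at kept borders this length can span 2 domains. The 2 lengths are therefore not compared. Lost borders made up between 2.30% and 7.25% of the reproducible borders of a chromosome, with the lowest shares on chromosomes 22 and 17 and the highest on chromosomes 13 and 18. A bin without data lay within 13 bins of 34 lost borders (13.3%) and of 15.5% of kept ones.

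Genes of several lists were checked for a start site within 80 kb of a lost border. None of 34 genes of the secretory phenotype, such as IL1A, IL6 and MMP1, had one, although 12 of them lay within 80 kb of a reproducible border. None of 27 genes of the cell cycle and its arrest, none of 26 fibroblast genes and none of 12 genes of loop and border proteins did, although 14, 12 and 11 of them lay by reproducible borders. Over all 19222 protein-coding genes 351 (1.83%) lay by a lost border and 48.9% by a reproducible one, so that counts of 0 in lists of this size are close to the background. Of 12 AP-1 and related genes, MAFK was the only one, at the chromosome 7 border described above.

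The study itself chose a list of genes with cohesin islands in RIS on these cells, and it is no independent evidence of a direction. Of the 610 genes of its list used here, 4 lay by a lost border (0.656%), against 1.83% of all protein-coding genes. They include ALDOA, a glycolytic aldolase, LSM14B, an RNA-binding protein, and ZMIZ1, a transcriptional coactivator. At ALDOA the bin edge of the lost border lay 4.51 kb from the start, a distance finer than the bins of 40 kb. The RIS border was 120 kb away. Insulation at the lost border was -0.14 in growing cells and -0.43 in RIS. At the position of the RIS border it was already the lower, -0.36 in growing cells and -0.70 in RIS. At ZMIZ1 the border was isolated, and insulation was -0.00337 in growing cells and -0.0114 in RIS. At LSM14B it was -0.07 and -0.33. The rule used insulation, so nothing is read from these values.

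Capture Hi-C gave a measurement in libraries that the rule had not used. Of the lost borders, 9 lay in a captured region and 5 had the whole window of 26 bins of 10 kb on each side inside it. Capture insulation was centred on the mean of the region. At all 5 it was higher in both RIS libraries than in both growing libraries, as it was at 44.7% of the 2935 positions tested, while 35.6% had both RIS libraries lower. Of the 5, 3 passed the test (limma, adjusted p below 0.05), where 54.7% of all positions were called, 29.8% higher in RIS and 24.9% lower. Of 52 kept borders with a window, 12 were higher and 24 lower. With 2 libraries against 2, no exact permutation test of a single border could give a p below 0.333. Without growing replicate 1 none of the 3 passed, and without growing replicate 2, 1 did. Without RIS replicate 2 the border on chromosome 19 no longer passed (limma, adjusted p = 0.0511) and that on chromosome 15 did (limma, adjusted p = 0.0327). Leaving out a capture library left 1 in its group, which is assumed to vary like the libraries of the other group.

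At chr6:26080001-26160000, in the histone gene cluster beside HFE, an iron regulator, capture insulation was -0.63 and -0.62 in growing cells, and -0.44 and -0.55 in RIS. The rise was 0.13 with an SE of 0.03 (limma, adjusted p = 0.0146). At chr19:51440001-51520000, in the cluster of KLK5 to KLK9, genes of secreted serine proteases, it was -0.24 and -0.27 in growing cells and -0.20 and -0.16 in RIS (limma, adjusted p = 0.0219). At chr13:49480001-49560000, by the start of FNDC3A, it was 0.14 and 0.16 and rose to 0.24 and 0.21 (limma, adjusted p = 0.00999).

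The other 2 did not pass. The isolated border at chr18:49600001-49680000 had 0.11 and 0.09 in growing cells and 0.13 and 0.15 in RIS (limma, adjusted p = 0.0909). The border at chr15:70800001-70880000, which is among the 12 above, had -0.37 and -0.39 in growing cells and -0.33 and -0.36 in RIS (limma, adjusted p = 0.0855). The remaining 4 in captured regions had no whole window. They lay on chromosome 8 beside the start of ZC2HC1A and inside IL7, the gene of a cytokine, on chromosome 21 beside GABPA, an ETS transcription factor, and ATP5PF, an ATP synthase subunit, and at 2 sites without a gene on chromosome 4.

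Both positions, that of the growing border and that of the RIS border, could be compared in the capture libraries. On chromosome 15, capture insulation at the growing border was lower than at the RIS border 120 kb away, by -0.07 in both growing libraries. In RIS it was higher there, by 0.01 in replicate 1 and 0.03 in replicate 2. The difference between both positions was thus of opposite sign in the groups, and small in RIS. At the other 3 neighboured borders the sign was the same in all 4 libraries. On chromosome 19 the growing border stayed the lower of both positions, by -0.32 in each growing library and by -0.16 and -0.05 in RIS. In Hi-C, with its window of 13 bins of 40 kb, the same difference was -0.02 in growing cells and 0.18 in RIS. Capture thus did not show the Hi-C order in RIS there. On chromosomes 6, 13 and 15 the signs in Hi-C were those in capture. On chromosomes 6 and 13 the RIS border was already the lower one in growing cells, by 0.63 and 0.67 and by 0.62 and 0.64, and in RIS by 0.87 and 0.73 and by 0.74 and 0.73.

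**Figure D5:**
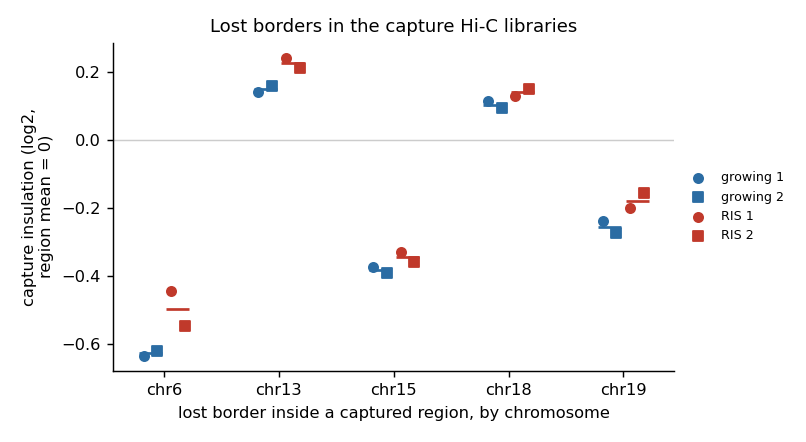
Capture insulation (log2, region mean set to 0) at the 5 lost borders with a whole window inside a captured region, with 1 point per capture library and a line at the mean of each group. Both RIS points lie above both growing points at the 5 borders, by group means of 0.04 to 0.13, as they do at 44.7% of all captured positions tested.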

How the data were processed

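Hi-C of 3 growing and 2 RIS libraries and capture Hi-C of 2 and 2 were analysed. The authors aligned reads to hg19 with HiC-Pro after FastQC, removed artefacts and duplicates, and deposited each library as balanced signal per pair of bins (40 kb, or 10 kb for capture). Each Hi-C library sums to 200000000 over both orientations, of which 1 was kept. A factor per bin returned whole contacts for 100% of Hi-C pairs, within 0.05 contacts or, where larger, 1% of the count. These gave the depth and the voom alternative.

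Windows needed data in a fraction of at least 0.5 of their pairs, and gaps held no border. Insulation and prominence chose the borders and were not tested. Flank pairs enter the rims of prominence, so their fit is given as a description only. Flank contacts, contacts across at 26 to 50 bins, A/B scores and capture insulation were fitted over all positions with limma 3.58.1 in R 4.3.3, growing against RIS without covariates, with Benjamini-Hochberg adjustment. The rule and fits were tested on simulated data. Borders, gene lists and splits were chosen with earlier results of these data known. The named borders are the 12 with the highest growing prominence, those in captured regions and those near list genes. Genes came from GENCODE on GRCh37, and start sites are those of protein-coding genes. Alternatives changed window, prominence, distance, depth, centring, blocks and libraries. Python 3.11.15 was used with numpy 2.4.6, scipy 1.17.1 and pandas 2.3.3. Binding and expression data were not used here. One gene of the lists is not reported here.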

Additional observations from a re-analysis of the deposited data

How the results depend on the processing

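With other windows and prominences, which borders were lost changed more than how many. The count of 256 became 327 with a window of 10 bins, 248 with 16 bins, 380 at a prominence of 0.05, 214 at 0.2 and 301 after thinning all libraries to the shallowest, and these found again 79, 98, 99, 98 and 197 of the 256. It became 414 where only a RIS border within 1 bin counted as kept, with all 256 among them. With 3 bins it became 168, with 2 of the 12 strongest among them. The mean RIS matrix was used in every setting. At a prominence of 0.05 and at 1 bin, 226 and 278 borders were absent from every RIS library. Both numbers are over 200, so the rule as written would have stopped there. Leaving out a library gave 165 to 320, with 165 without growing replicate 2 and 170 without growing replicate 3, where both other growing libraries had to call a border. These found again 163 and 170 of the 256, so here the number changed and few other borders came in. Lost borders with a RIS border within 200 kb numbered 157, and 135 or 191 with a limit of 4 or 6 bins, chosen after seeing the data.

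Leaving out a library gave 4215 to 11547 A/B bins, 922 to 1594 capture positions (922 without growing replicate 1 and 1022 without growing replicate 2), 0 to 3 lost borders higher in capture, 29 to 57 lost borders with more contacts across at long range, and 16 to 37 with more flank contacts. Lost borders with fewer flank contacts numbered 73 to 107. These flank counts are descriptions, as the rule used the contacts. The cause was not tested.

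The replicate number was not a known pairing, and the deviations of same-numbered libraries correlated between -0.28 and 0.21. With a replicate block, 29613 positions were called across, 34923 for flank contacts, 12341 A/B bins and 1601 capture positions, against 33365, 34519, 10856 and 1605, and 107 lost borders fell in flank contacts. A block for the libraries that the study lists with many more duplicates, growing replicate 3 and RIS replicate 2, gave 110.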

Other observations

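The mirror rule, borders of both RIS libraries with none within 2 bins in a growing library or in the mean growing matrix, gave 470 of 5002 borders, of which 257 were absent from all 3 growing libraries. The rules are not the same in both directions, since a growing border had to be called in 2 of 3 libraries and a RIS border in both, so the counts were not compared.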
